A study of Mus musculus with 5 samples.

Results

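Isolated cardiomyocytes (CM) of the mouse heart were compared with cardiac fibroblasts (CF) of non-failing hearts for the expression of cullins and F-box genes. These are 2 of the 5 samples of the series, and both are described over the same 130 probe sets of 71 genes. Each of these samples was RNA pooled from 5 healthy male C57Bl/6N mice aged 6 months, hybridised to 1 Affymetrix expression array. The other 3 samples were failing CF from hearts of beta1-adrenergic transgenic mice, left ventricle and lung fibroblasts from healthy C57Bl/6N mice. With 1 pooled sample a side there is no replicate error, and no difference given here has a test. The array reads RNA of an isolated cell fraction, so that fewer cells of a type and less RNA per cell cannot be told apart. None of the 22 markers of CM, fibroblasts and other heart cells that had been listed stands among the 71 genes (0 of 22), and the table of the whole array gives no gene names, so that the labelled cell types could not be checked against their markers.

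Cullin-RING ligases attach ubiquitin to proteins and thereby mark most of them for the proteasome. A cullin forms the backbone of the ligase. It holds a RING protein and the ubiquitin-conjugating enzyme at its C-terminus, and an adaptor with a substrate receptor at its N-terminus. In the SCF ligases of Cul1 the receptor is an F-box protein, named Fbxw where it carries WD40 repeats, Fbxl where it carries leucine-rich repeats and Fbxo where it carries another domain. CM are non-dividing contractile cells, and Fbxo32 (Atrogin-1) is the best known F-box protein of muscle. CF can divide and make the extracellular matrix of the heart.

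The levels are log2 values per probe set, and an Affymetrix array reads a gene by 1 or several probe sets. The level of a gene is the mean of its probe sets, and differences are CM minus non-failing CF on the log2 scale, so that 1 is a 2-fold higher level in CM. The spread of the levels differed widely between the samples. The 130 probe sets lay between -0.75 and 11.52 in CM, with a median of 6.22 and a standard deviation (SD) of 2.62. They lay between 4.82 and 10.69 in non-failing CF, with a median of 6.67 and an SD of 1.11. In CM 37 probe sets, or 28.5 percent, were under 4.82, the lowest value of non-failing CF. The low ends thus differed, and the sources used here give no method of normalization. Across the 130 probe sets, the difference correlated with the CM level with a Pearson's r of 0.91 and with the non-failing CF level with an r of -0.28. Both r share a term with the difference and are descriptions. The order of the differences thus followed the CM column, which has the wider spread.

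**Figure D1:**
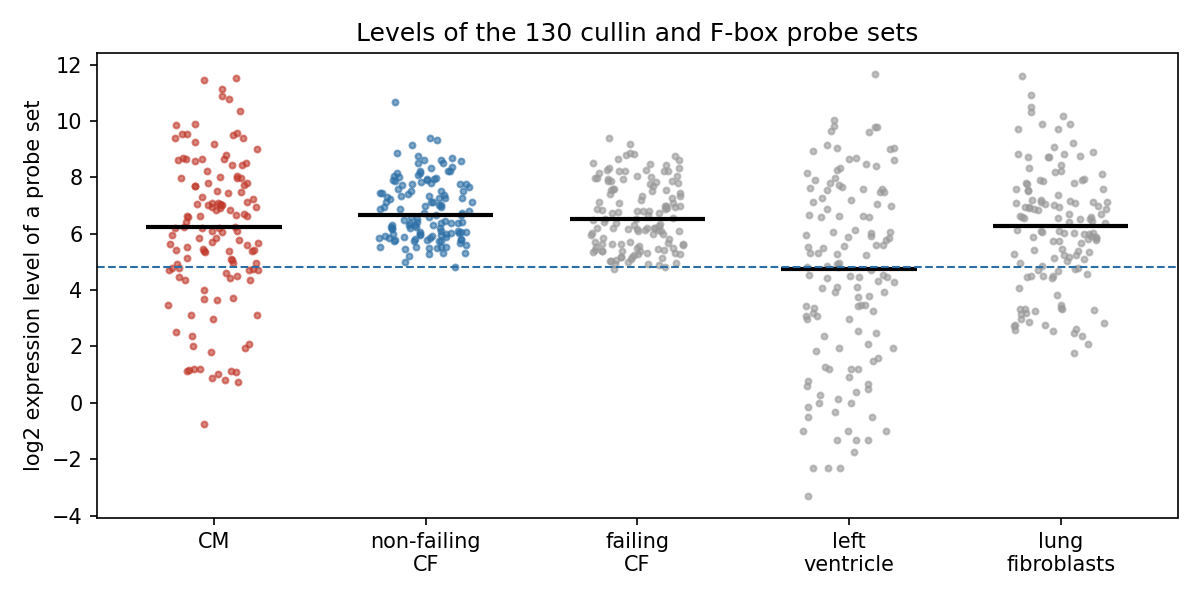
Log2 level of each of the 130 probe sets (points) in the 5 samples, with the median of each sample as a black line. The dashed line is the lowest value of non-failing CF, 4.82, and 37 probe sets of CM lie under it.

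Genes were counted as higher or lower in CM where the difference was at least 2-fold and the level at least 6.0 in either sample, 6.0 being the level that the methods took from the manufacturer as relevant. Of the 71 genes, 15 were higher in CM (21.1 percent) and 26 were lower (36.6 percent). The median difference over all genes was -0.51. Gene groups are set beside these values below. They were chosen with earlier results of these data known, so that their departures from all genes are no independent result. Counted by probe set, 38 of the 130 were higher (29.2 percent) and 47 were lower (36.2 percent). A level of at least 6.0 was reached in both samples by 30 genes, in CM alone by 8, in non-failing CF alone by 23 and in neither by 10. The 8 genes at 6.0 in CM alone were Cul7, Fbxl6, Fbxl12, Fbxl19, Fbxo7, Fbxo21, Fbxo25 and Fbxo34. Of the 26 lower genes, 15 had a CM level under the lowest probe set of non-failing CF, and 3, namely Fbxo3, Fbxo45 and Fbxo46, still reached 6.0 in CM. Nearest to the 2-fold line among the higher genes were Fbxo25 and Cul7, both at 1.07, and next below it came Cul4a at 0.83 and Fbxl14 at 0.82. Among the lower genes Fbxo31 at -1.05 and Fbxo3 at -1.30 were nearest to it. Outside it, Fbxw2 at -0.51 and Fbxo33 at -0.42 came next of the genes at 6.0 or above in either sample, while Fbxo44 at -0.98 and Fbxl4 at -0.66 were nearer but under 6.0 in both. A further 7 genes were past 2-fold but under 6.0 in both samples and were not counted, namely Cul2, Fbxl15, Fbxo5, Fbxo16, Fbxo43, Fbxw9 and Fbxw10, all with negative differences.

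A single probe set read 9 of the 15 higher and 15 of the 26 lower genes. Where a gene had several probe sets, they often disagreed. Of the 32 such genes, 13 had all probe sets on the same side of 0, and the SD of the difference over the probe sets of a gene had a median of 1.74. All probe sets of a gene were higher in CM for 2 of the 6 higher genes with several probe sets, Fbxw7 and Cul5. All were lower for 8 of the 11 lower ones. This SD is a spread within 1 array pair and no replicate error.

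**Figure D2:**
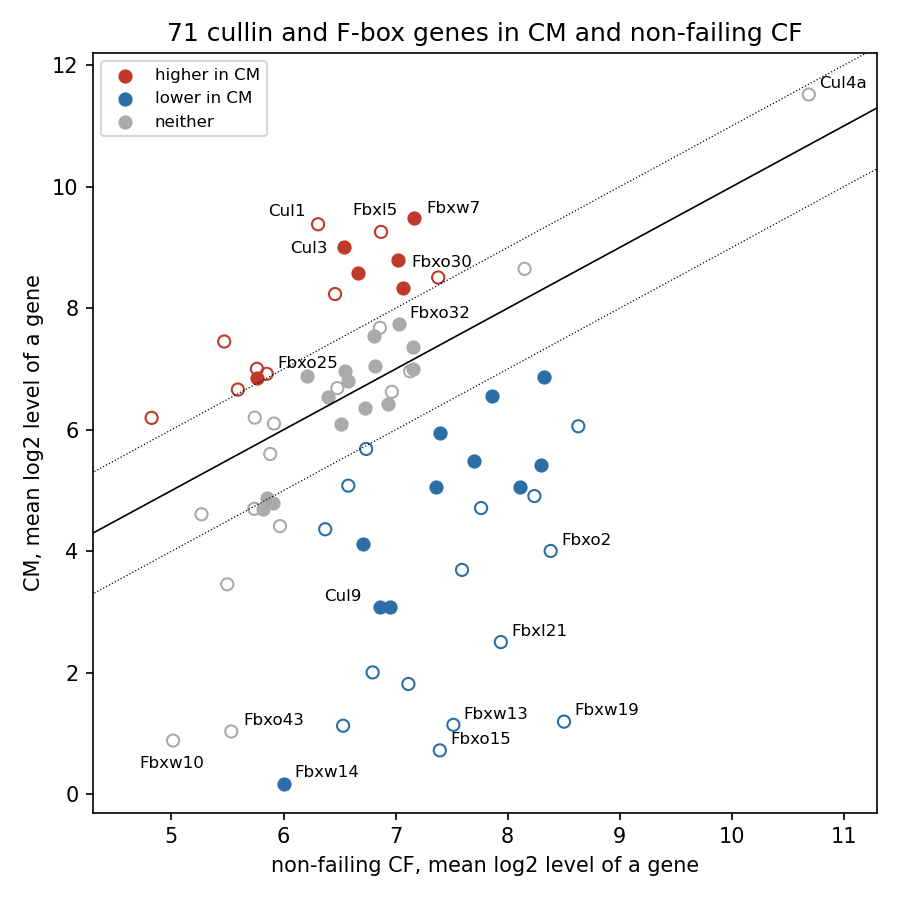
Mean log2 level of each of the 71 genes in CM (vertical axis) against non-failing CF (horizontal axis). Red points are genes higher in CM, blue points genes lower in CM and grey points the others. Filled points have several probe sets and open points 1. The solid line marks equal levels and the dotted lines 2-fold differences. CM levels run from 0.18 to 11.52 and non-failing CF levels from 4.82 to 10.69.

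The cullin scaffolds leaned to higher levels in CM than in non-failing CF. Of the 8 cullins measured, 4 were higher in CM and 1 was lower, that is 4 of 8 beside 21.1 percent of all genes and 1 of 8 beside 36.6 percent. Their median difference was 0.95, and that over all genes was -0.51. Cul1, the scaffold of the SCF ligases, stood at 9.38 in CM and at 6.31 in non-failing CF by its 1 probe set. The difference of 3.07, or 8.42-fold, was the largest of the 71 genes towards CM. The same probe set stood at 0.00 in left ventricle, a tissue that contains CM, and at 8.73 in lung fibroblasts. The lean was not particular to CM. Lung fibroblasts also had higher means than non-failing CF for Cul1 to Cul5 and Cul7, and a lower one for Cul9. In lung fibroblasts Cul3, Cul5, Cul7 and Cul9 stood at 7.71, 7.53, 7.79 and 4.85.

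Cul3, which carries receptors with a BTB domain, averaged 9.00 ± 1.61 in CM and 6.54 ± 0.70 in non-failing CF (SD over 5 probe sets). Its probe sets read 10.90, 9.86, 7.78, 6.94 and 9.54 in CM, against 5.85, 5.98, 6.30, 7.27 and 7.32 in non-failing CF in the same order. Of the 5 differences 4 were therefore positive, between 1.48 and 5.05, and 1 was -0.33. Cul5, the scaffold of SOCS-box ligases, read 6.83, 7.02 and 11.14 in CM, against 6.10, 6.21 and 8.88 in non-failing CF. All 3 of its probe sets were higher in CM, by 0.73, 0.81 and 2.26, and without the third the mean difference was 0.77 and no longer 2-fold. Cul7, which pairs with the F-box protein Fbxw8, stood at 6.66 in CM and at 5.59 in non-failing CF.

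Cul4a and Cul4b, closely related scaffolds that bind substrate receptors through Ddb1, were not 2-fold different. Cul4a stood at 11.52 in CM and at 10.69 in non-failing CF, the highest level of the 71 genes in either sample. It was at 5.49 in failing CF and at -0.51 in left ventricle, by the same probe set. Cul4b read 8.60 and 5.38 in CM, against 7.90 and 6.41 in non-failing CF, and its 2 probe sets differed in opposite directions.

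By the mean of their probe sets, Cul2 and Cul9 had the lowest cullin levels in CM, which for Cul2 rests on 1 probe set. Cul2, which carries the von Hippel-Lindau protein, read 1.15 and 8.44 in CM, against 5.48 and 6.33 in non-failing CF. Its probe sets differed by -4.32 and 2.12, so that the mean difference of -1.10 describes neither of them. Cul9, which binds p53, read 4.94 and 1.21 in CM, against 7.74 and 5.98 in non-failing CF. Both probe sets were lower in CM, by 2.80 and 4.77 on the log2 scale. RefSeq places Cul9 and Cul7 close together on chromosome 17, with 4 protein-coding genes between them, and the first was lower and the second higher in CM.

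**Figure D3:**
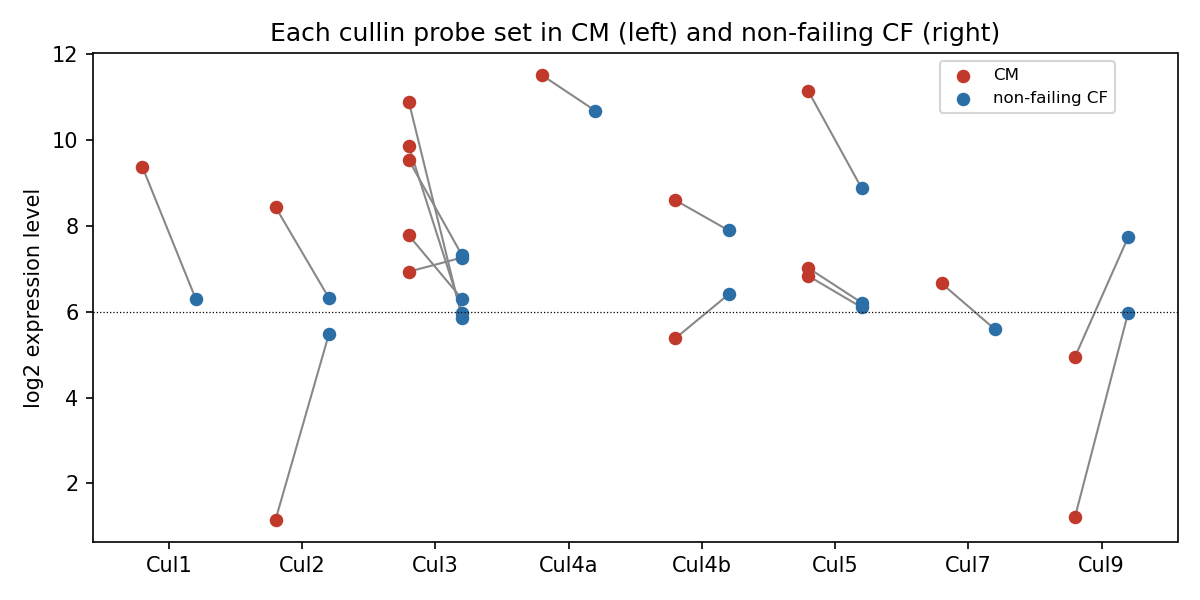
Log2 level of every probe set of the 8 cullins in CM (left point) and non-failing CF (right point), joined by a line for each probe set. The dotted line is 6.0. All lines of Cul1, Cul4a, Cul5 and Cul7 and 4 of the 5 of Cul3 run down to non-failing CF, both lines of Cul9 run up, and Cul2 and Cul4b have 1 line each way.

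The F-box genes known for muscle had higher means in CM. Fbxo25, Fbxo30 and Fbxo32 were measured of 5 such genes listed, 2 of the 3 were counted as higher in CM beside 21.1 percent of all genes, and their median difference was 1.07. With the highest probe set of each gene, 1 of the 3 was higher, the median was 0.52 and the difference of Fbxo30 was 0.315. Fbxo30, a ubiquitin ligase of muscle atrophy also called MUSA1, averaged 8.79 ± 0.16 in CM and 7.02 ± 1.46 in non-failing CF (SD over 4 probe sets). Its probe sets lay within 8.67 to 9.01 in CM, whereas they read 5.22, 7.52, 6.66 and 8.70 in non-failing CF. The differences accordingly ran from -0.03 to 3.47. Fbxo25, a receptor for the cardiac transcription factors Nkx2-5 and Tbx5, stood at 6.92 in CM and at 5.85 in non-failing CF by 1 probe set, a 2.10-fold difference. Fbxo32 read 7.49 and 7.98 in CM, against 7.46 and 6.60 in non-failing CF. Its mean was 0.71 higher in CM, or 1.63-fold, and 1 of the probe sets differed by 0.03. Fbxo32 is best known as a muscle gene, yet its level in non-failing CF was 7.03 and that in failing CF was 7.94.

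Among the conserved WD40 receptors, 2 of 8 genes were higher in CM and 1 was lower, beside 21.1 and 36.6 percent of all genes, and the share of higher genes was near that background. The median difference of -0.34 turned with scaling, to 0.11 with equal medians and 0.58 with quantile normalization, and no gene was counted as lower under either. Fbxw7, the receptor for cyclin E, Myc and Notch, read 9.58 and 9.41 in CM, against 7.95 and 6.37 in non-failing CF. Both probe sets were higher in CM, by 1.62 and 3.04, for a mean of 2.33 or 5.03-fold. Fbxw5 stood at 8.51 in CM and at 7.38 in non-failing CF, by 1 probe set. Fbxw4 stood at 6.96 in CM and at 7.13 in non-failing CF.

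Fbxw11, a receptor for beta-catenin and the inhibitor of NF-kappaB, showed how far probe sets of a gene can part. It read 7.51, 10.34, 11.44, 4.72 and 3.66 in CM, against 6.43, 8.02, 5.84, 5.78 and 7.98 in non-failing CF. Its differences ran from -4.33 to 5.60 around a mean of 0.72. Fbxw2 was read by 7 probe sets, whose differences ran from -2.39 to 1.52 around a mean of -0.51. Fbxw8 was lower in CM by all 4 of its probe sets, which read 7.74, 3.12, 7.09 and 5.86 in CM, against 8.21, 5.32, 8.16 and 7.89 in non-failing CF. Its mean difference was -1.44, while its partner Cul7 was higher in CM. Fbxw9 read 2.38 and 7.01 in CM, against 5.54 and 6.09 in non-failing CF. Fbxw10 stood at 0.89 in CM and at 5.01 in non-failing CF, and was not counted because it reached 6.0 in neither.

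The Fbxw genes that were expanded in rodents were all lower in CM. Of 16 such genes listed, 5 were measured, and all 5 met the 2-fold rule, against 36.6 percent of all genes. Their median difference was -5.82, or -3.55 with quantile normalization and -2.77 with low values set to 4.82. Fbxw19 stood at 1.20 in CM and at 8.50 in non-failing CF, and this difference of -7.31 was the largest of the 71 genes. Fbxw13 stood at 1.14 in CM and at 7.52 in non-failing CF. Fbxw14 read 1.10 and -0.75 in CM, against 5.81 and 6.19 in non-failing CF. Its mean in non-failing CF was 6.0009, so that it only just passed the level of 6.0 and was counted. Fbxw17 stood at 3.69 in CM and at 7.59 in non-failing CF. Fbxw16 read 5.46 and 5.39 in CM, against 9.32 and 7.27 in non-failing CF, and its second probe set also names Gm7163.

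Of these genes 4, Fbxw13, Fbxw14, Fbxw16 and Fbxw19, lie together on chromosome 9 in RefSeq, Fbxw16 and Fbxw19 side by side, whereas Fbxw17 lies on chromosome 13. The promoters of Fbxw14, Fbxw16 and Fbxw19 are much alike in sequence, while no promoter was matched for Fbxw13. Gene and probe sequences were not compared. Probe sets may read more than 1 of the copies on chromosome 9, so that their levels are not certain to belong to single genes. The promoters of Fbxw14, Fbxw16 and Fbxw19 are shown because these 3 genes were lower together in CM, and that of Fbxw7 because it was the receptor counted as higher in CM with several probe sets in 1 direction. They run from 250 bases before to 50 bases after the annotated start in RefSeq (GRCm38.p6), 5′ to 3′, with the first of 3 listed starts for Fbxw7. Capitals mark the E-box CAGCTG, which reads the same on both strands, and the GC box GGGCGG or its reverse complement CCGCCC. Among all 32851 promoters of this length, 16.3 percent held CAGCTG and 35.7 percent held GGGCGG on either strand.
Fbxw14, chr9:109287627-109287926, minus strand: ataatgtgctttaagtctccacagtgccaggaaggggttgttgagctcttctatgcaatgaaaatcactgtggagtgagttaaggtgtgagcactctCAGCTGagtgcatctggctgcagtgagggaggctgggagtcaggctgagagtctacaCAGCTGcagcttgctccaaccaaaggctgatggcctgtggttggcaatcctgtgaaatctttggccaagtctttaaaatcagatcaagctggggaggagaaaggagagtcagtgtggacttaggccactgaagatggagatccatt
Fbxw16, chr9:109449091-109449390, minus strand: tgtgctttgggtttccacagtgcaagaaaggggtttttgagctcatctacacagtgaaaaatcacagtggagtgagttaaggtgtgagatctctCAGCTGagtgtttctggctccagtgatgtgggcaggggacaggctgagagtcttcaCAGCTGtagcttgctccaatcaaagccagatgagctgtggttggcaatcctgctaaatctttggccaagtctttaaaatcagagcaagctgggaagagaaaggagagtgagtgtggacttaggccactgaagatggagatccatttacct
Fbxw19, chr9:109495805-109496104, minus strand: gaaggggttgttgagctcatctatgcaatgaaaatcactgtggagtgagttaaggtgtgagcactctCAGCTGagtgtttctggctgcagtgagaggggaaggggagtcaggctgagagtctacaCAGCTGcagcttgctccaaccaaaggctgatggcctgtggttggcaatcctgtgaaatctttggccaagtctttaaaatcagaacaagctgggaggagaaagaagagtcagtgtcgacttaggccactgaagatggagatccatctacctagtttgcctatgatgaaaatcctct
Fbxw7, chr3:84815327-84815626, plus strand: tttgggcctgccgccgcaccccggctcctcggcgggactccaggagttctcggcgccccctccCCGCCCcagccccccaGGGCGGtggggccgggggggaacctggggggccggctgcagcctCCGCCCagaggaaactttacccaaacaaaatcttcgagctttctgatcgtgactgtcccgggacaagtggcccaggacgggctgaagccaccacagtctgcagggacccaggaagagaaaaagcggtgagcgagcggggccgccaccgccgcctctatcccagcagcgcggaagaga

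The promoters of Fbxw14 and Fbxw19 were identical at 95.9 percent of 269 aligned bases, those of Fbxw16 and Fbxw19 at 89.7 percent of 273, and those of Fbxw14 and Fbxw16 at 88.8 percent of 294. Each held 2 copies of CAGCTG and no GC box, and together they held a single CG dinucleotide, in Fbxw19. The Fbxw7 promoter held 24 CG dinucleotides, 3 GC boxes and no CAGCTG. A promoter was matched for 54 of the 71 genes. Of these 54 promoters, 22.2 percent held CAGCTG and 63.0 percent held a GC box, which is the share to set the following counts beside. CAGCTG stood in 1 of 12 promoters of genes higher in CM, in 8 of 19 of genes lower in CM and in 3 of 23 of the others. The 8 included the 3 near-identical copies, and with Fbxw17, Fbxo17, Fbxo27, Fbxo41 and Fbxl7 make up that count. A GC box stood in 9, 12 and 13 of these promoters in the same order. These matches describe letters in a window and no bound site.

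Of 17 Fbxl genes with leucine-rich repeats, 4 were higher in CM and 7 lower, with a median difference of -0.66. Both shares were near the 21.1 and 36.6 percent of all genes and are no result about the family. Fbxl5, which senses iron and targets iron regulatory protein 2, stood at 9.26 in CM and at 6.87 in non-failing CF, a 5.23-fold difference. Fbxl12 stood at 7.45 in CM and at 5.47 in non-failing CF. Fbxl19, a receptor for the interleukin-33 receptor ST2, stood at 7.00 in CM and at 5.76 in non-failing CF. Each of these 3 genes had 1 probe set.

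Large differences the other way were found for Fbxl21, a receptor for the cryptochromes of the circadian clock, at 2.51 in CM and 7.94 in non-failing CF. Fbxl8 stood at 1.13 in CM and at 6.53 in non-failing CF, and Fbxl2, a membrane-anchored receptor, at 1.82 in CM and at 7.11 in non-failing CF. Fbxl16 stood at 4.71 in CM and at 7.76 in non-failing CF, and Fbxl18 at 4.36 in CM and at 6.37 in non-failing CF. These 5 genes had 1 probe set each, and all 5 lay under 4.82 in CM. Fbxl7, a receptor for Aurora A, read 6.25, 6.60, 1.96 and 5.40 in CM, against 8.77, 6.39, 7.34 and 6.93 in non-failing CF. Of its 4 probe sets 3 were lower in CM and 1 was higher by 0.21.

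The Fbxl genes near equality included Fbxl17, a quality-control receptor for BTB-domain proteins, which read 7.69 and 7.05 in CM, against 6.24 and 8.07 in non-failing CF. Fbxl20 read 5.77, 5.64, 9.50 and 7.29 in CM, against 6.30, 7.33, 6.68 and 6.95 in non-failing CF. Its mean difference was 0.23, or 0.66 from the deposited intensity of the whole array, which did not match at 1 of its probe sets. Fbxl14, a receptor for the transcription factor Snail1, stood at 7.68 in CM and at 6.86 in non-failing CF.

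The F-box genes with an FBA domain, several of which bind N-glycans of glycoproteins, had lower means in CM for all 5 measured genes. By the 2-fold rule 3 of the 5 were lower, beside 36.6 percent of all genes, and the median difference was -3.33, or -1.86 with low values set to 4.82. Fbxo2 stood at 4.01 in CM and at 8.38 in non-failing CF. Fbxo17 stood at 4.91 in CM and at 8.24 in non-failing CF. Fbxo27 read 5.36 and 0.79 in CM, against 7.51 and 6.39 in non-failing CF, and both probe sets were lower in CM. Fbxo44 read 4.97 and 4.77 in CM, against 5.88 and 5.83 in non-failing CF, just short of 2-fold at -0.98. Fbxo6 read 6.85 and 5.85 in CM, against 6.00 and 7.46 in non-failing CF, so that its probe sets disagreed. In RefSeq Fbxo6, Fbxo44 and Fbxo2 are direct neighbours on chromosome 4, and Fbxo27 and Fbxo17 on chromosome 7. Within the first run of neighbours the differences of -0.38, -0.98 and -4.38 were far apart.

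**Figure D4:**
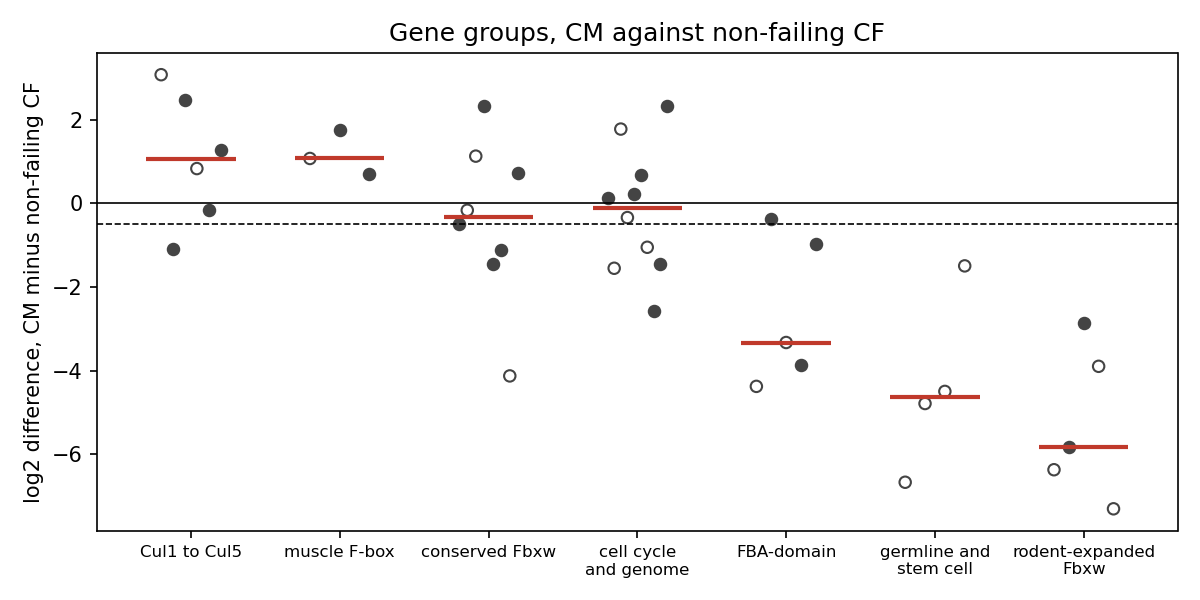
Log2 difference, CM minus non-failing CF, of each measured gene in 7 gene groups. Filled points are genes with several probe sets, open points genes with 1, red lines the group medians and the dashed line the median of all 71 genes, -0.51. The medians run from 1.07 for the muscle F-box genes to -5.82 for the rodent-expanded Fbxw genes.

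Of 10 measured receptors of the cell cycle and genome stability, 2 were higher in CM and 3 lower, near the 21.1 and 36.6 percent of all genes, and their median difference was -0.10. With quantile normalization 5 were higher and 2 lower with a median of 0.54, and with equal medians 3 were higher and 2 lower with a median of 0.34. Apart from Fbxw7, the higher one was Fbxo11, a receptor for BCL6, at 8.23 in CM and 6.46 in non-failing CF. Fbxo5 (Emi1), which restrains the anaphase-promoting complex before mitosis, stood at 4.41 in CM and at 5.97 in non-failing CF, under 6.0 in both. Fbxo31, a receptor for cyclin D1, stood at 5.68 in CM and at 6.74 in non-failing CF. Fbxo42, a receptor for p53, read 3.12, 3.73 and 5.52 in CM, against 6.16, 7.22 and 6.74 in non-failing CF, and all 3 probe sets were lower in CM. The third lower gene was Fbxo45. Fbxo18, now named Fbh1, a DNA helicase, stood at 6.62 in CM and at 6.97 in non-failing CF.

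The remaining genes of this group rested on probe sets that contradicted each other. Fbxo4 read 4.48 and 8.59 in CM, against 7.11 and 5.68 in non-failing CF. Fbxo22 read 8.43, 9.89 and 2.10 in CM, against 6.06, 7.77 and 5.91 in non-failing CF. Fbxo28 read 6.43, 6.23 and 7.97 in CM, against 5.31, 7.80 and 5.51 in non-failing CF. The mean differences of these 3 genes, between 0.13 and 0.67, stand for no single probe set among them.

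F-box genes of germ and stem cells had lower means in CM. In non-failing CF they lay between 5.53 and 7.39, where the lowest value of any probe set was 4.82. Of 4 measured, 3 were lower in CM, beside 36.6 percent of all genes, and none was higher. Their median difference of -4.64 was -2.05 with quantile normalization and -1.73 with low values set to 4.82, and 2 of the 4 were counted as lower with equal medians and with quantile normalization. Fbxo15, a marker of embryonic stem cells, stood at 0.72 in CM and at 7.39 in non-failing CF, and at 7.67 in left ventricle. Fbxo24 stood at 2.01 in CM and at 6.79 in non-failing CF. Fbxl13 stood at 5.08 in CM and at 6.58 in non-failing CF. Fbxo43 (Emi2), which holds the egg in meiosis, stood at 1.03 in CM and at 5.53 in non-failing CF and did not reach 6.0. In lung fibroblasts Fbxo15, Fbxo24, Fbxl13 and Fbxo43 stood at 1.76, 5.84, 2.97 and 2.76. Each of the 4 had 1 probe set, and the levels of 3 of them in CM lay far under the lowest value of non-failing CF.

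Outside these groups, differences ran both ways. Fbxo7, linked to mitophagy and familial parkinsonism, stood at 6.20 in CM and at 4.82 in non-failing CF, the lowest level of any gene there. Fbxo21 read 5.70 and 7.98 in CM, against 5.79 and 5.73 in non-failing CF, so that 1 probe set carried its difference of 1.08. Fbxo8 stood at 8.65 in CM and at 8.15 in non-failing CF. Fbxo10, a receptor for BCL2, stood at 6.68 in CM and at 6.48 in non-failing CF. Fbxo34, Fbxo38, Fbxl4 and Fbxl6 likewise lay within 2-fold, with differences between -0.66 and 0.46. Fbxo46 stood at 6.06 in CM and at 8.63 in non-failing CF. Fbxo36 read 4.34 and 6.64 in CM, against 6.24 and 9.16 in non-failing CF, lower by both probe sets. Fbxo41, known from neurons, read 2.99 and 7.12 in CM, against 8.56 and 7.66 in non-failing CF, and its differences of -5.58 and -0.54 were unequal. Fbxo3, which targets Fbxl2 for degradation, read 8.05, 7.06, 4.74, 5.16 and 7.80 in CM, against 6.07, 8.52, 9.40, 8.32 and 7.00 in non-failing CF. Of its 5 probe sets 3 were lower in CM and the other 2 higher.

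**Figure D5:**
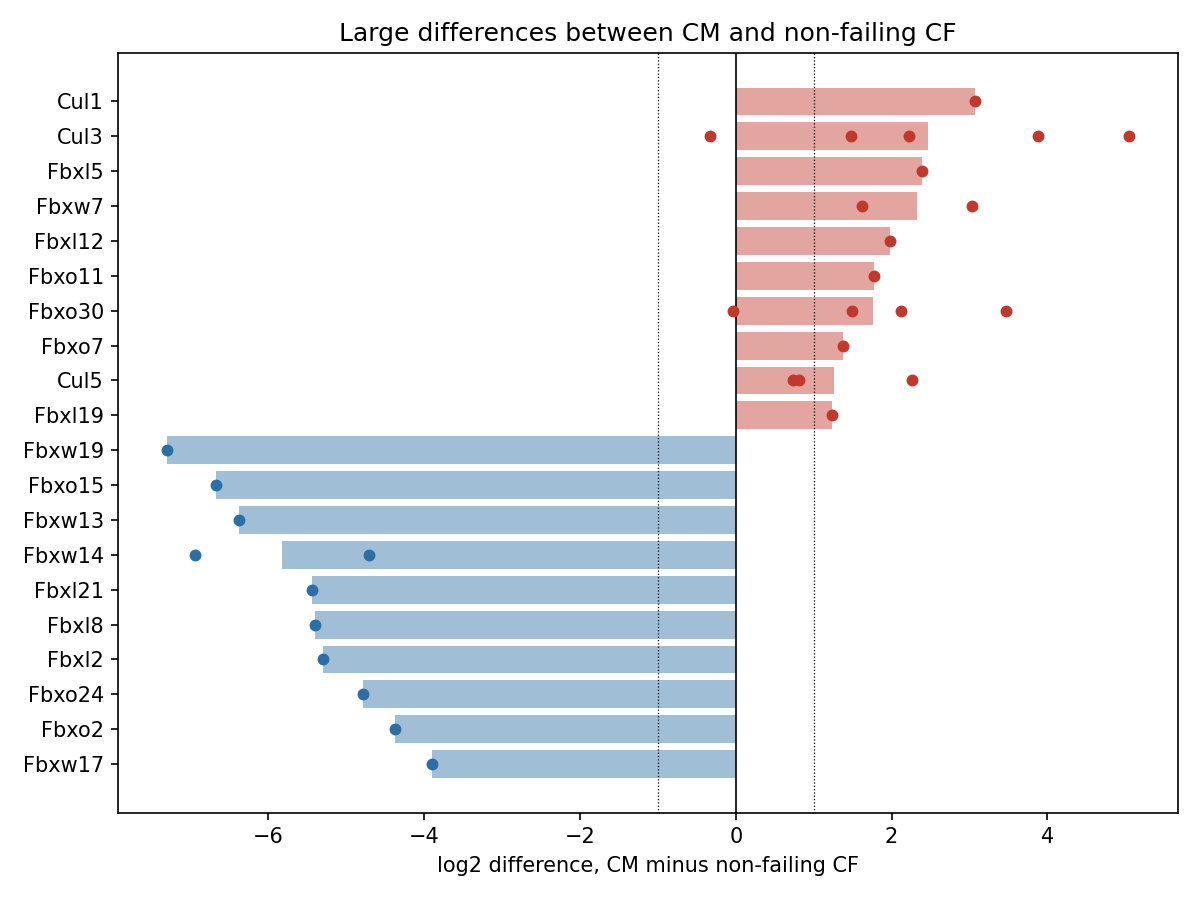
Log2 difference, CM minus non-failing CF, of 10 genes higher and 10 genes lower in CM that the text names. Bars are gene means and points single probe sets, and dotted lines mark 2-fold. Bars reach 3.07 for Cul1 and -7.31 for Fbxw19.

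The 11 measured genes whose depletion changed the size of rat CM in the study's screen were also set side by side. The study had picked its targets for high levels in its CM array profile, so that high CM levels among them are no independent result. In CM 4 were higher (Cul1, Fbxo25, Fbxo30 and Fbxw5) and Fbxo45 was lower, that is 4 and 1 of 11 beside 21.1 and 36.6 percent of all genes, with a median difference of 0.71. With equal medians 6 were higher and 1 lower, and with the highest probe set 4 were higher and none lower. Fbxo45, which acts with the ligase Mycbp2 at synapses, read 5.09 and 8.66 in CM, against 8.60 and 8.06 in non-failing CF. Fbxo9, a receptor for regulators of mTOR, read 9.17 and 4.77 in CM, against 5.95 and 7.14 in non-failing CF. Fbxo33 read 5.96 and 6.21 in CM, against 6.02 and 7.00 in non-failing CF. Fbxo9 and Fbxo45 thus had probe sets on both sides of 0. So did Fbxo6, between -1.60 and 0.85, and Fbxo30, between -0.03 and 3.47. Of the 11 genes 10 reached a mean of 6.0 in both samples, Fbxo25 being the exception.

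The sizes of the large differences depended on the low end of the CM column. When every value under 4.82 was set to 4.82, all 41 genes kept their call and Fbxo22 was added to the higher genes. Most of these calls could not change by construction. No higher gene had a CM probe set under 4.82. All 26 lower genes reached 6.0 in non-failing CF, more than 2-fold above 4.82, so that those with 1 probe set had to stay lower. The sizes could change. With this floor the difference of Fbxw19 was -3.68 in place of -7.31, that of Fbxo15 -2.57 in place of -6.67 and that of Fbxw14 -1.18 in place of -5.82. With the medians of the samples made equal, 20 genes were higher in CM and 19 lower, and with quantile normalization 18 and 20. Higher genes thus made up 51.3 and 47.4 percent of those counted, compared with 36.6 percent as deposited. The rodent-expanded Fbxw genes kept negative differences under both, 4 of the 5 being counted as lower, and the muscle F-box genes kept positive ones. Among the FBA-domain genes, Fbxo6 turned positive under both scalings and Fbxo44 under quantile normalization, and the same 3 genes stayed counted as lower.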

How the data were processed

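Gene expression was measured in pools of 5 mice, 1 array per sample, and the samples were grouped by their titles. Log2 values of 130 probe sets were deposited by the authors in 2 sheets, beside a table of the whole array (45101 probe sets) with linear intensity. Paper and series name an Affymetrix mouse expression set, while the labelling record and the software named belong to other array types. For background correction, probe set summary and normalization the sources used here name no method. Per the file headers, 4 further columns of each sheet hold the authors' own log2 differences between samples, which were not used. Converted to a linear scale, the sheets matched the deposited intensity within 1 percent or 0.01 units for 129 of the 130 probe sets. The other was a probe set of Fbxl20.

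A gene was the first symbol of a probe set (several symbols stood at 4), its level the mean of its probe sets. In RefSeq (GRCm38.p6) 70 names were current and 1 was older. Differences were described, without a test, as higher or lower from 2-fold upwards where either sample reached 6.0. Named in full were the 10 largest differences each way, cullins, muscle F-box genes and screen hits, and other list members with their values. Members and lists were chosen with earlier results of these data known. For 1 gene, counted with the others, no value is reported here. Promoters were those of RefSeq, the first listed start where there were several, aligned globally with free ends. Alternatives are given in the closing section. Python 3.11.15, pandas 2.3.3, NumPy 2.4.6, Biopython 1.88 and matplotlib 3.10.9 were used. The code of the counting rule was run on simulated differences without noise, equal for all probe sets of a gene. All simulated non-failing CF levels lay above 6.0. Recovery of the calls was therefore fixed by construction, and the run says nothing about low levels or probe sets that disagree. The number of arrays limits the precision.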

Additional observations from a re-analysis of the deposited data

How the results depend on the processing

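No paired analysis was possible because CM and non-failing CF had 1 sample each. Against 15 genes higher and 26 lower in CM, requiring at least 2 probe sets in 1 direction gave 2 and 8, which leaves out the 39 genes with 1 probe set by construction, and a 4-fold rule gave 4 and 21. Every other setting run kept both counts within 1.5 times, namely the median or the highest probe set, leaving out _s_at and _x_at probe sets, equal medians, quantile normalization, low values set to 4.82, no minimum level, a level of 6.5, 1.5-fold and the whole-array table. With low values set to 4.82, most calls could not change by construction. The split still turned with scaling: higher genes made up 36.6 percent of those counted as deposited, 51.3 percent with equal medians and 47.4 percent after quantile normalization. Both scalings were set over these 130 probe sets in all 5 samples. The median difference of the genes, -0.51 as deposited, was -0.062 after making medians equal, 0.20 after quantile normalization, -0.82 without _s_at and _x_at probe sets, and -2.21 for the 13 genes with several probe sets in 1 direction. Equal medians moved CM by -0.14 and non-failing CF by -0.58. Of the 41 genes counted, 34 kept their call with equal medians and 33 after quantile normalization. Taking the highest probe set turned Fbxo45 to 0.063. Chosen after seeing the data, leaving out any 1 probe set kept the call of 4 of 6 higher and 6 of 11 lower genes with several. Cul5, Fbxo21, Cul9, Fbxo3, Fbxo41, Fbxo45 and Fbxw14 lost theirs under at least 1 omission, and Fbxo21 and Fbxo45 also changed sign, to -0.09 and 0.60. Cul9 and Fbxw14 lost the call only because the remaining probe set was under 6.0 in both samples. Their differences stayed between -4.77 and -2.80 for Cul9 and between -6.94 and -4.71 for Fbxw14. No detection call or background signal was at hand, so that low levels cannot be told from background.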
